A study of Mus musculus with 9 samples.

Results

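Endoplasmic reticulum stress and chaperones were followed through 10 genes, taken by name from the gene column of the deposited table: the transcription factors Atf4, Ddit3 and Xbp1, the chaperones Hspa5, Hsp90b1 and Calr, the cochaperones Dnajb9 and Sdf2l1, the disulfide enzyme Pdia4 and the degradation factor Herpud1. All 10 were found among 54532 genes, and all 10 were among the 14004 genes that passed the filter on low counts. The cells were ST2, a mouse bone marrow stromal line labelled as a mesenchymal stem cell of wild-type genotype, and poly-A RNA was sequenced 72 h after treatment in 9 libraries. Veh was vehicle, rhWnt3a was recombinant human Wnt3a at 50 ng/ml, and rhWnt3aOSMI carried OSMI, an inhibitor of O-GlcNAc transferase, at 20 µM, with 3 libraries in each group. The titles of the rhWnt3aOSMI group name rhWnt3a together with OSMI, while its treatment label and the description of the design name OSMI without rhWnt3a, so its labels do not give the rhWnt3a dose of that group. The combined treatment is taken from the titles. There is 1 cell line and no group with OSMI alone, so the action of OSMI in cells without rhWnt3a was not tested.

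Proteins that enter the secretory pathway fold in the endoplasmic reticulum (ER) with the help of chaperones, and unfolded protein there engages the sensors IRE1, PERK and ATF6. IRE1 splices the messenger of Xbp1, PERK raises the translation of ATF4, which in turn acts on Ddit3 (CHOP). ATF6 is processed to release a transcription factor, and together these raise chaperones, disulfide enzymes and the machinery that returns misfolded protein to the cytosol for degradation. Cells of the osteoblast lineage secrete much collagen and rely on this machinery. Gene counts such as those used here show messenger levels and do not separate spliced from unspliced Xbp1.

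Total counts ran from 16135898 to 17583945 per library, and 3 counts, the upper limit that a count of 0 allows, correspond to 0.170 to 0.191 CPM (counts scaled to 1e6 per library) after scaling by the trimmed mean of M-values. Such limits cover counting error only. Sdf2l1, the least abundant member, had 72 counts in its lowest library. A gene was called where the Benjamini-Hochberg adjusted p of edgeR's quasi-likelihood test over all tested genes was under 0.05 and the log2 fold change was beyond 0.5 in either direction. The labels do not say that the libraries came from separate cultures, so p-values measure only the spread between these samples, and an exact permutation test of 3 against 3 cannot give a two-sided p below 0.1. In bulk RNA, fewer cells that express a gene and less of its RNA per cell cannot be told apart. The 3 comparisons share libraries, since each group stands in 2 of them.

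The cell type label was checked against markers. Of 12 stromal markers, 10 were tested, and their summed level was 23722, 25074 and 18376 CPM in Veh 1, 2 and 3, 18122, 14959 and 17935 CPM in rhWnt3a, and 9259, 8430.4 and 16158 CPM in rhWnt3aOSMI. Col1a2 was the most abundant at a mean of 7806 CPM, while Thy1 and Lepr did not pass the count filter, with at most 0.230 CPM and 0.243 CPM in any library. Of these 10 markers, 3 were called lower and 0 higher in rhWnt3a against Veh, 2 lower and 0 higher in rhWnt3aOSMI against rhWnt3a, and 5 lower and 0 higher in rhWnt3aOSMI against Veh, with 4, 3 and 1 of the 10 above 0. Without Veh 3, rhWnt3a 2 and rhWnt3aOSMI 3 the counts were 4 lower, 6 lower and 1 higher, and 8 lower. Of all tested genes 8.78%, 4.74% and 14.2% were called, and 18.12%, 12.68% and 23.75% without these libraries. The 7 blood cell markers summed to 0.350 to 1.72 CPM, with Cd68 the most abundant and Cd3e and Itgam at 0 in all 9 libraries. The 4 endothelial markers summed to 0.243 to 1.28 CPM, led by Tek, and the 4 epithelial markers to at most 0.244 CPM, led by Cdh1, with Krt18 at 0.

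In each group 1 library stood apart from the other 2 over all tested genes. The mean squared log2 difference between libraries was 0.454 and 0.392 for the pairs with Veh 3 against 0.117 for Veh 1 and 2, 0.411 and 0.373 for the pairs with rhWnt3a 2 against 0.111 for the other pair, and 0.442 and 0.437 for the pairs with rhWnt3aOSMI 3 against 0.119. The share of counts that fell on the fibronectin gene Fn1 was 1.76% in Veh 3 against 3.55% and 4.22% in its group, 1.39% in rhWnt3a 2 against 3.77% and 3.67%, and 2.75% in rhWnt3aOSMI 3 against 2.20% and 2.06%. Mitochondrial transcripts took between 2.51% and 3.36% of counts in the 9 libraries. Deviations from the group mean also followed gene length, with slopes per doubling of length of -0.065 log2 units in Veh 3, -0.10 in rhWnt3a 2 and 0.13 in rhWnt3aOSMI 3, against 0.046 and 0.020, 0.054 and 0.046, and -0.071 and -0.062 in the other libraries of those groups.

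The 10 members were high or low together in these 3 libraries. Veh 3 was the highest library of its group for 9 of 10 members, all but Pdia4, rhWnt3a 2 was the highest for 10 of 10, and rhWnt3aOSMI 3 was the lowest for 10 of 10. Over all tested genes the same libraries were highest or lowest for 43.6%, 44.0% and 45.1%. The median deviation of the members from their group mean was 0.32 log2 units in Veh 3, 0.24 in rhWnt3a 2 and -0.38 in rhWnt3aOSMI 3, and the Hspa5 deviation in Veh 3 was the largest of its group at 0.79. Across the 45 pairs of members, the Pearson correlation of these deviations over the 9 libraries had a median of 0.911 and ran from 0.5003 to 0.988. For the levels themselves, with the group means left in, it had a median of 0.665 and ran from -0.0088 to 0.968. No such values are given for genes outside the members. The part of gene length or RNA quality in the deviations from the group mean was not tested. Because the members were highest or lowest in these libraries, their log2 fold changes are given with and without Veh 3, rhWnt3a 2 and rhWnt3aOSMI 3. The fit without them has 2 libraries a group that were kept because they lie close together, so its spread is small by construction. The Veh library it leaves out is the high one and the rhWnt3aOSMI library the low one, which moves the folds of the members in rhWnt3aOSMI against Veh upward by construction. The same holds in rhWnt3aOSMI against rhWnt3a, where the rhWnt3a library left out is the high one. In rhWnt3a against Veh the library left out is the high one of both groups, so no direction follows.

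**Figure D1:**
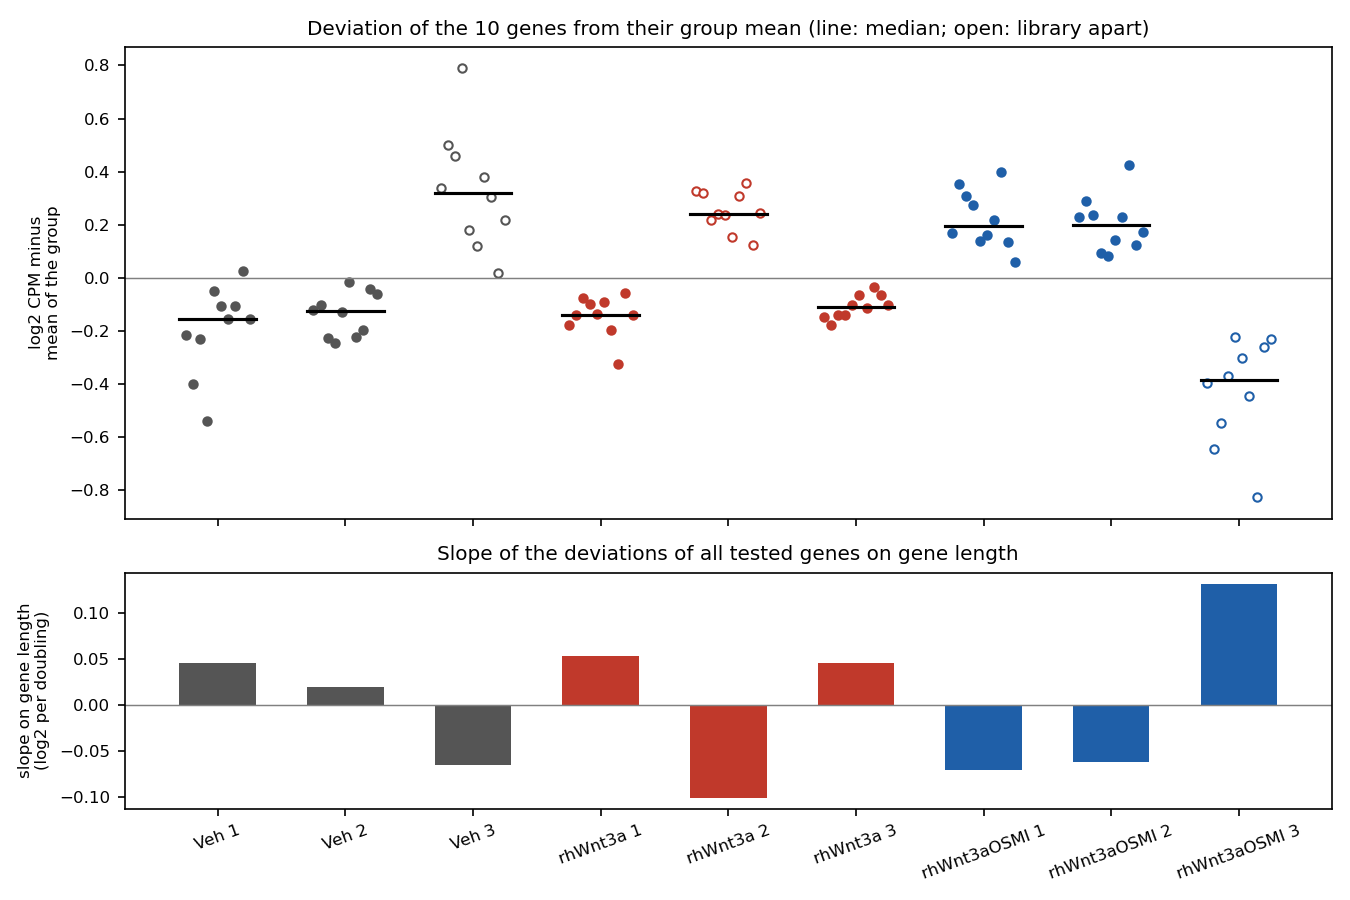
Upper panel, log2 CPM of each of the 10 genes minus its group mean in each of 9 libraries, with a line at the median and open points for the library that stood apart in each group; lower panel, the slope of the same deviations of all tested genes per doubling of gene length. The medians were 0.32 in Veh 3, 0.24 in rhWnt3a 2 and -0.38 in rhWnt3aOSMI 3, and the slopes had the opposite sign to the medians in those libraries.

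Levels between genes were compared on the deposited FPKM scale, which divides by gene length. In Veh, Hspa5 averaged 224 ± 113 FPKM (SD, n = 3), Ddit3 207 ± 65.9, Atf4 198 ± 40.2, Calr 158 ± 10.96 and Hsp90b1 145 ± 15.2 FPKM. Below them Herpud1 averaged 94.3 ± 12.1 FPKM, Pdia4 48.0 ± 1.32, Xbp1 30.2 ± 8.53, Dnajb9 12.4 ± 2.87 and Sdf2l1 5.87 ± 1.10 FPKM. Neighbours from Hspa5 down to Hsp90b1 did not differ beyond their spread in Veh, and each step from Hsp90b1 down to Sdf2l1 did. In rhWnt3a the order was Hspa5 (312 ± 49.6 FPKM), Calr, Hsp90b1, Atf4, Ddit3 (138 ± 29.2 FPKM), Herpud1, Xbp1 (52.5 ± 7.63 FPKM), Pdia4, Dnajb9 and Sdf2l1, where the SD ranges of neighbours from Calr to Herpud1 and of Xbp1 and Pdia4 overlapped. In rhWnt3aOSMI Hspa5 averaged 339 ± 69.1 FPKM and Ddit3 231 ± 74.7 FPKM, and the SD ranges of neighbours overlapped from Hspa5 down to Calr and between Pdia4 and Xbp1. Of the 10, Hspa5 had rank 1, Herpud1 rank 6, Dnajb9 rank 9 and Sdf2l1 rank 10 in every group, while Ddit3 had rank 2 in Veh and rhWnt3aOSMI and rank 5 in rhWnt3a.

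Comparison of rhWnt3a with Veh asked what the ligand changed. Of the 10 members, 8 had a log2 fold change above 0 and 2 below, and 1, Dnajb9, was called higher and 0 lower. Over all tested genes 8.78% were called, 2.92% higher and 5.86% lower. Xbp1, Dnajb9 and Sdf2l1 were higher in every rhWnt3a library than in every Veh library, so 3 of 10 members did not overlap between groups, beside 26.4% of all tested genes. The median log2 fold change was 0.26 for the members and 0.037 for all tested genes. With 0 members called lower by edgeR, the same count by DESeq2 was 0, and 2 members passed an unadjusted p under 0.05, both higher. These 2 also passed the fold threshold, as did 2155 of the 14004 tested genes at that p. The share of all genes at that p alone is not given.

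Comparison of rhWnt3aOSMI with rhWnt3a asked what changed when OSMI was present. Here 2 members, Hspa5 and Ddit3, had a log2 fold change above 0 and 8 below, and 0 were called by edgeR's quasi-likelihood test, 0 by DESeq2 and 2 at an unadjusted p under 0.05, Ddit3 and Pdia4. Over all tested genes 4.74% were called, 1.69% higher and 3.05% lower. With the fold threshold, 1 member, Ddit3, and 2271 of the 14004 tested genes passed the unadjusted p. Calr, Pdia4 and Xbp1 were lower in every rhWnt3aOSMI library than in every rhWnt3a library, 3 of 10 members beside 33.7% of all tested genes, and the median was -0.30 for the members and -0.015 for all tested genes. The split of 2 above and 8 below moved to 4 and 6 with offsets for gene length and GC content, where Herpud1 was at 0.12 and Atf4 at 0.13.

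Comparison of rhWnt3aOSMI with Veh had 7 members above 0 and 3 below, with 0 called by edgeR, 0 by DESeq2 and 1, Dnajb9, at an unadjusted p under 0.05. Over all tested genes 14.2% were called, 4.84% higher and 9.34% lower. With the fold threshold, Dnajb9 and 3186 of the 14004 tested genes passed the unadjusted p. Pdia4 alone did not overlap between the groups, 1 of 10 members beside 38.8% of all tested genes, and the medians were 0.14 and -0.0077. With the length and GC offsets 8 members were above 0 and 2 below, since Calr moved from -0.13 to 0.045.

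Without Veh 3, rhWnt3a 2 and rhWnt3aOSMI 3, 4 members were called higher in rhWnt3a against Veh (Hspa5, Xbp1, Dnajb9 and Sdf2l1), 1 in rhWnt3aOSMI against rhWnt3a (Ddit3), and 5 in rhWnt3aOSMI against Veh (Hspa5, Ddit3, Xbp1, Dnajb9 and Sdf2l1), with 0 called lower in each. That fit also called 18.12%, 12.68% and 23.75% of all its tested genes, and the medians of the members were 0.20, 0.065 and 0.49. The direction of Pdia4 in the first comparison turned to -0.016, and those of Herpud1 (0.16), Sdf2l1 (0.15) and Atf4 (0.29) in the second and of Calr (0.029) in rhWnt3aOSMI against Veh turned to above 0. Leaving out Veh 3 alone gave 3 members called in the first comparison and 1, Hspa5, in rhWnt3aOSMI against Veh, beside 1315 and 1852 of all genes.

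**Figure D2:**
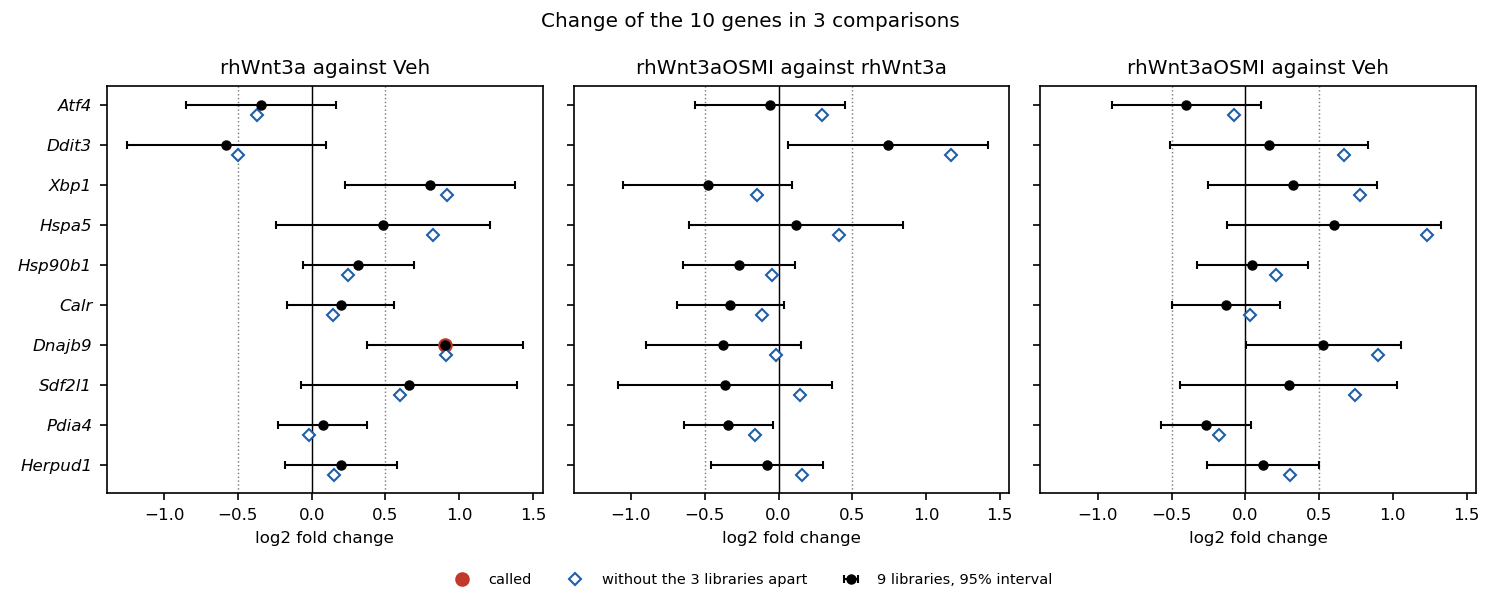
Log2 fold change of the 10 genes in each comparison, with 95% intervals from all 9 libraries (black) and the value without the 3 libraries that stood apart (open diamonds); dotted lines mark 0.5 in either direction. The call of Dnajb9 in rhWnt3a against Veh is marked by a red point, and the diamonds of Hspa5 against Veh lie at 0.82 and 1.23 beside 0.48 and 0.60 with all libraries.

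Among the transcription factors, Xbp1 (ENSMUSG00000020484, chr11:5520659-5525893, GRCm38), the target of IRE1 splicing, had 82.6, 82.9 and 133 CPM in Veh 1, 2 and 3, 164, 201 and 157 CPM in rhWnt3a 1, 2 and 3, and 149, 142 and 82.4 CPM in rhWnt3aOSMI 1, 2 and 3. The rhWnt3a libraries were all above the Veh libraries and above the rhWnt3aOSMI libraries, while rhWnt3aOSMI 3 lay at the level of Veh 1 and 2 and Veh 3 below rhWnt3aOSMI 1 and 2. Its log2 fold change was 0.80 (SE 0.26) in rhWnt3a against Veh, which missed the call (edgeR quasi-likelihood test, adjusted p = 0.0942). The call was made without Veh 3 (log2 fold change 1.07, edgeR adjusted p = 0.0287), without rhWnt3aOSMI 3 (0.0309) and by DESeq2 (adjusted p = 0.0357), over a range of 1.63e-09 to 0.289 across the other settings. Xbp1 passed in 7 of 17 other settings, among them no count filter and the length and GC offsets, and missed in the rest. The 7 include the setting without adjustment for the number of genes, which only loosens the threshold and is not a call as defined above. They also include the fit without the 3 libraries that stood apart, whose spread is small by construction. Against rhWnt3a, rhWnt3aOSMI gave -0.48 (SE 0.26) with edgeR's quasi-likelihood adjusted p = 0.295, and against Veh 0.32 (SE 0.26) with 0.430. These became, when the 3 libraries were left out, 0.92, -0.14 and 0.78.

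Atf4 (ENSMUSG00000042406, chr15:80255184-80257541), translated when PERK is active, had 402, 429.9 and 590.1 CPM in Veh 1, 2 and 3, 326, 463 and 333 CPM in rhWnt3a 1, 2 and 3, and 397, 414 and 268 CPM in rhWnt3aOSMI 1, 2 and 3. The groups overlapped in all 3 comparisons, with Veh 3 the highest and rhWnt3aOSMI 3 the lowest of the 9 libraries. Its log2 fold changes were -0.34 (SE 0.23), -0.057 (SE 0.23) and -0.40 (SE 0.23), and edgeR's quasi-likelihood test gave adjusted p of 0.494, 0.897 and 0.269. They were -0.37, 0.29 and -0.077 when the 3 libraries were left out, none of them called.

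Ddit3 (ENSMUSG00000025408, chr10:127290774-127296288), the transcription factor CHOP downstream of ATF4, had 264, 325 and 493 CPM in Veh 1, 2 and 3, 216, 297 and 211 CPM in rhWnt3a 1, 2 and 3, and 492, 471 and 246 CPM in rhWnt3aOSMI 1, 2 and 3. The rhWnt3a libraries were low, rhWnt3aOSMI 1 and 2 were near Veh 3, and rhWnt3aOSMI 3 lay among the rhWnt3a libraries, so the groups overlapped in each comparison. The log2 fold change of rhWnt3aOSMI against rhWnt3a was 0.74 (SE 0.30) and was not called (edgeR quasi-likelihood test, adjusted p = 0.186, range 1.68e-09 to 0.350 across the other settings). Without the 3 libraries it was 1.17 and was called (edgeR adjusted p = 1.68e-09), but these leave out the highest rhWnt3a and the lowest rhWnt3aOSMI library of this gene, so the larger value follows from that choice. It was also called with the length and GC offsets (0.99, adjusted p = 0.0182) and with no count filter (adjusted p = 0.0275). In rhWnt3a against Veh Ddit3 was at -0.58 (SE 0.30) with edgeR adjusted p = 0.339, and in rhWnt3aOSMI against Veh at 0.16 (SE 0.30) with 0.748, where the sign turned to -0.0065 without Veh 1. Against Veh without the 3 libraries, rhWnt3a gave -0.499, not called, and rhWnt3aOSMI gave 0.67, called. The gene overlaps Mars on the other strand, which had 23431 counts over the 9 libraries beside 51003 for Ddit3. The strand setting of the counting is not given in the sources used here, so reads of the pair cannot be told apart where they overlap. A second entry named Ddit3 had 0 counts in every library and was not used.

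**Figure D3:**
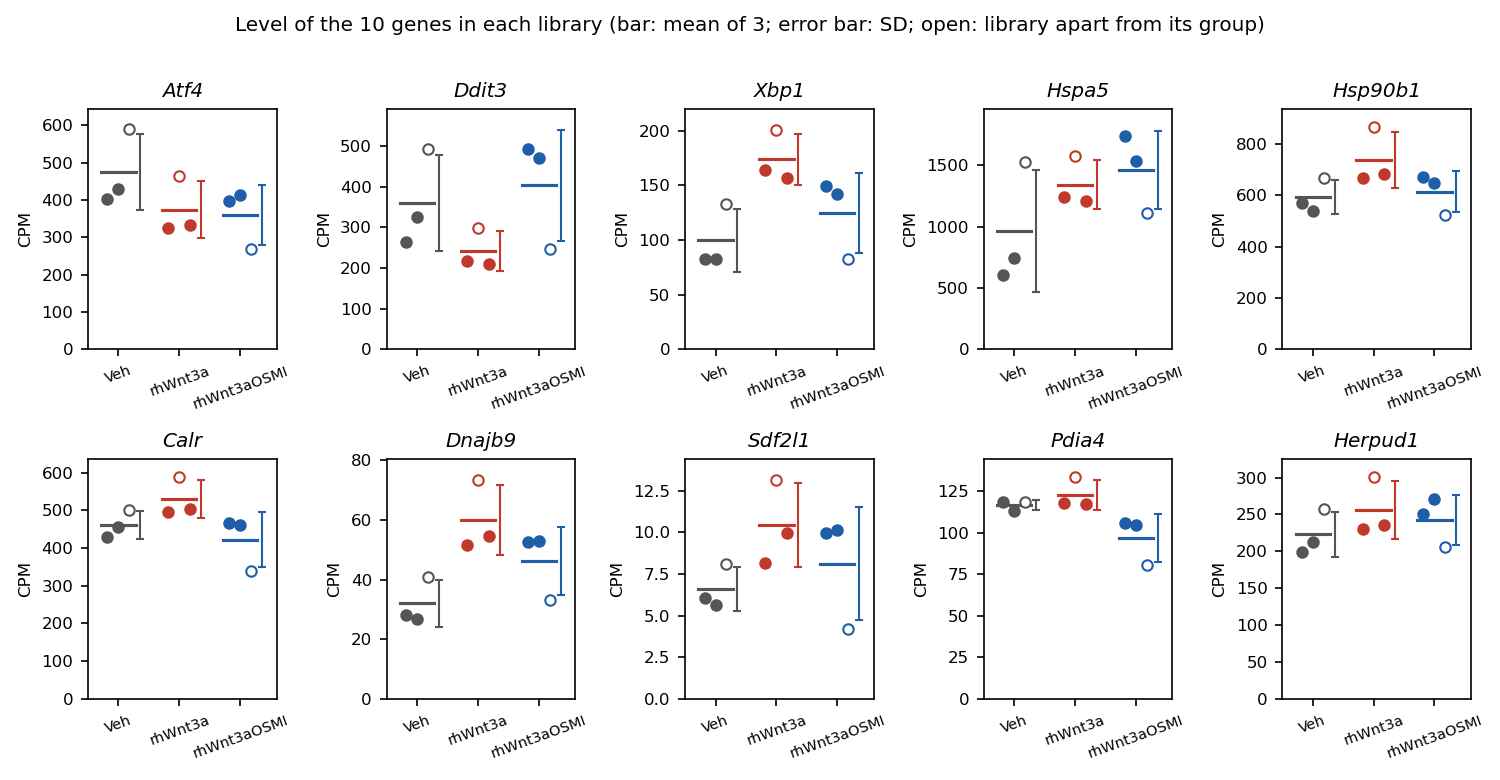
CPM of each of the 10 genes in each of 9 libraries by group, with the mean of 3 as a bar and the SD as an error bar; open points are the library that stood apart in each group. The 3 rhWnt3a points of Xbp1 (157 to 201 CPM) lie above the Veh points (82.6 to 133 CPM), and Ddit3 in rhWnt3aOSMI splits into 2 points at 492 and 471 CPM and 1 at 246 CPM.

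Hspa5 (ENSMUSG00000026864, chr2:34771970-34777547), which encodes BiP, the main Hsp70 chaperone of the ER and the partner that holds the stress sensors inactive, had 609, 747 and 1531 CPM in Veh 1, 2 and 3, 1246, 1574 and 1211 CPM in rhWnt3a 1, 2 and 3, and 1738, 1533 and 1110.1 CPM in rhWnt3aOSMI 1, 2 and 3. Veh 3 lay at the level of the treated libraries, and Veh 1 and 2 were below all 6 of them. The log2 fold change was 0.48 (SE 0.33) in rhWnt3a and 0.60 (SE 0.33) in rhWnt3aOSMI against Veh, neither called by edgeR's quasi-likelihood test (adjusted p = 0.504 and 0.245), and 0.12 (SE 0.32) in rhWnt3aOSMI against rhWnt3a (0.845). Veh 3 decided both comparisons with Veh: without it the values were 0.99 (edgeR adjusted p = 0.0314) and 1.11 (adjusted p = 0.0154), and both passed. Without Veh 1 they moved the other way, to 0.24 and 0.37, and neither passed. Without the 3 libraries they were 0.82 and 1.23, and rhWnt3aOSMI against rhWnt3a was at 0.41, not called. Over the other settings the adjusted p ran from 2.55e-07 to 0.844 in the first and from 7.23e-10 to 0.468 in the second. Both lower ends come from the fit without the 3 libraries, whose spread is small by construction and which leaves out Veh 3.

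Hsp90b1 (ENSMUSG00000020048, chr10:86690209-86705509), the Hsp90 chaperone of the ER (GRP94), had 572, 541 and 670.0 CPM in Veh 1, 2 and 3, 669, 866 and 685 CPM in rhWnt3a 1, 2 and 3, and 673, 647 and 523 CPM in rhWnt3aOSMI 1, 2 and 3. The 2 highest libraries were rhWnt3a 2 and rhWnt3a 3, and the groups overlapped narrowly, with rhWnt3a 1 just below Veh 3. Its log2 fold changes were 0.32 (SE 0.17), -0.27 (SE 0.17) and 0.048 (SE 0.17) in the 3 comparisons, with edgeR adjusted p of 0.357, 0.366 and 0.875. With 1 library left out they ran from 0.19 to 0.42, -0.33 to -0.12 and 0.0085 to 0.15. They were 0.25, -0.041 and 0.21 when the 3 libraries were left out, none of them called. An overlapping gene of few reads, 1810014B01Rik, shares 8.47% of its transcript. Calr (ENSMUSG00000003814, chr8:84841850-84846934), calreticulin, a lectin chaperone of glycoproteins, had 428, 456 and 501 CPM in Veh 1, 2 and 3, 495, 587 and 504 CPM in rhWnt3a 1, 2 and 3, and 466, 461 and 338 CPM in rhWnt3aOSMI 1, 2 and 3. The rhWnt3aOSMI libraries were all below the rhWnt3a libraries, and rhWnt3aOSMI 3 was the lowest of the 9. Its log2 fold change there was -0.33 (SE 0.16) (edgeR adjusted p = 0.266), and 0.20 (SE 0.16) (0.618) and -0.13 (SE 0.16) (0.620) against Veh. With the 3 libraries left out it was -0.11 there, and 0.14 and 0.029 against Veh, none of them called.

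The promoters of these 3 chaperones and of Herpud1 hold the letters of the ER stress element, the sequence through which ATF6 and XBP1 are known to act, and are shown for that reason. RefSeq windows of 300 bases around the start of each gene (GRCm38.p6) were searched on both strands for CCAAT, 9 bases of any kind and CCACG (ER stress element), for ATTGG, 1 base and CCACG (its second form), for TGACGTGG and for TGATGNAA. All 10 members had a window. Capitals mark the matched letters, and the windows lie at chr2:34771840-34772139 on the plus strand, chr10:86705395-86705694 on the minus strand, chr8:84846882-84847181 on the minus strand and chr8:94386179-94386478 on the plus strand.
Hspa5: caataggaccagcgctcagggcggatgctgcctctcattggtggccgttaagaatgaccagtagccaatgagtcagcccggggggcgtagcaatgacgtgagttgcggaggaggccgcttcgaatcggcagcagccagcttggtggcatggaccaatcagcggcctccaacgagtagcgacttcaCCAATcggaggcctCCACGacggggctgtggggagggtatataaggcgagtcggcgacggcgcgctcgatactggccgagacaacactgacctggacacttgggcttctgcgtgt
Hsp90b1: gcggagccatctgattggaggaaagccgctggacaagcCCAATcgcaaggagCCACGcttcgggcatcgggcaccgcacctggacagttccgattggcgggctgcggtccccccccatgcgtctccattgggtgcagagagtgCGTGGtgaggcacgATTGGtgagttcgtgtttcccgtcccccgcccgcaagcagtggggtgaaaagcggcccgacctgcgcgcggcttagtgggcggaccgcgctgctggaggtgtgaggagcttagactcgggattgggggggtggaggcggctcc
Calr: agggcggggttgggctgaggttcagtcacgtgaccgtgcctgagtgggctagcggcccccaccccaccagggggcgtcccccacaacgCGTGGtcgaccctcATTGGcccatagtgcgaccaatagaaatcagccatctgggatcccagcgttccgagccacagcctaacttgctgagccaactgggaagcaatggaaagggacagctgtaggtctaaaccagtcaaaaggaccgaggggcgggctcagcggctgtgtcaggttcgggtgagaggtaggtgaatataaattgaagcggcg
Herpud1: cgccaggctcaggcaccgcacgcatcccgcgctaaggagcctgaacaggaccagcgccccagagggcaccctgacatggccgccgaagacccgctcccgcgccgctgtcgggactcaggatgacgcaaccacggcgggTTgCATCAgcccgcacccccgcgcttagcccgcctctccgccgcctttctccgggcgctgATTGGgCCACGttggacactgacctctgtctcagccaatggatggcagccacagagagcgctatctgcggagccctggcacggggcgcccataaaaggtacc

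Hspa5 held 1 match of the first form, Hsp90b1 held 2, on opposite strands, and Calr held 1 on the minus strand of the gene. Herpud1 held the second form, 1 match, and a separate match of TGATGNAA on the other strand. In all 32851 RefSeq windows the first form occurred in 0.119%, the second in 0.0365%, TGACGTGG in 0.676% and TGATGNAA in 3.97%. Of the 10 members, 4 held either form of the ER stress element and 0 held TGACGTGG. Xbp1, Atf4, Ddit3, Dnajb9, Sdf2l1 and Pdia4 held none of the 4 motifs in these windows, which says only that the letters are not in them. The matches are a description of sequence, not sites of binding.

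Of the cochaperones, Dnajb9 (ENSMUSG00000014905, chr12:44205559-44210326), ERdj4, a J-domain partner of BiP, had 28.2, 26.9 and 40.9 CPM in Veh 1, 2 and 3, 51.6, 73.3 and 54.7 CPM in rhWnt3a 1, 2 and 3, and 52.6, 52.9 and 33.1 CPM in rhWnt3aOSMI 1, 2 and 3. All 3 rhWnt3a libraries were above all 3 Veh libraries, Veh 3 was the highest of its group, and rhWnt3aOSMI 3 lay within the Veh range. Dnajb9 rose in rhWnt3a against Veh with a log2 fold change of 0.90 (SE 0.24) (edgeR quasi-likelihood test, adjusted p = 0.0413), higher in 3 of 3 libraries. The call rested on the full set of libraries: edgeR's adjusted p was above 0.05 without Veh 1 (0.149), Veh 2 (0.167), rhWnt3a 1 (0.0645), rhWnt3a 2 (0.105), rhWnt3a 3 (0.0919), rhWnt3aOSMI 1 (0.0537) or rhWnt3aOSMI 2 (0.0529). It passed without Veh 3 (0.0197) and rhWnt3aOSMI 3 (0.0161), with log2 fold changes of 0.73 to 1.12 when 1 library was left out. It held in 10 of 17 other settings of the analysis (each library left out, other tools, filters, scalings and thresholds, 2 of which only loosen the threshold). The replicate block is not among the 17, and edgeR with it gave an adjusted p of 0.117. The log2 fold change was -0.37 (SE 0.23) in rhWnt3aOSMI against rhWnt3a (edgeR adjusted p = 0.364) and 0.53 (SE 0.24) against Veh (0.164), and without the 3 libraries -0.015 and 0.90. In rhWnt3a against Veh it was 0.91 without the 3 libraries, and was called.

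Sdf2l1 (ENSMUSG00000022769, chr16:17130138-17132383), a component of the BiP chaperone cycle, had 6.05, 5.67 and 8.09 CPM in Veh 1, 2 and 3, 8.15, 13.1 and 9.99 CPM in rhWnt3a 1, 2 and 3, and 9.98, 10.2 and 4.20 CPM in rhWnt3aOSMI 1, 2 and 3. The lowest rhWnt3a library was 8.15 CPM and Veh 3 was 8.09 CPM, so the groups were parted by a narrow margin, and rhWnt3aOSMI 3 was the lowest of all 9. Its log2 fold changes were 0.66 (SE 0.33), -0.36 (SE 0.32) and 0.29 (SE 0.33), with edgeR adjusted p of 0.313, 0.520 and 0.578. The second turned from below to above 0, at 0.15, when the 3 libraries were left out.

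Pdia4 (ENSMUSG00000025823, chr6:47796141-47813430), a protein disulfide isomerase of the ER, had 119, 113 and 118 CPM in Veh 1, 2 and 3, 118, 133 and 117 CPM in rhWnt3a 1, 2 and 3, and 106, 105 and 80.4 CPM in rhWnt3aOSMI 1, 2 and 3. Its 3 Veh libraries were close together, rhWnt3aOSMI 3 was the lowest of all, and the rhWnt3aOSMI libraries were below those of both other groups. The log2 fold change was -0.34 (SE 0.14) in rhWnt3aOSMI against rhWnt3a (edgeR adjusted p = 0.176), -0.27 (SE 0.14) against Veh (0.215) and 0.073 (SE 0.14) in rhWnt3a against Veh (0.859). Without rhWnt3aOSMI 3 alone, rhWnt3aOSMI gave -0.22 against rhWnt3a and -0.15 against Veh. When the 3 libraries were left out these were -0.16 and -0.18, and rhWnt3a against Veh was -0.016, none of them called. Herpud1 (ENSMUSG00000031770, chr8:94386438-94395377), a membrane protein of the degradation complex and a known target of this stress response, had 199, 212 and 258 CPM in Veh 1, 2 and 3, 230.3, 301 and 236 CPM in rhWnt3a 1, 2 and 3, and 251, 271 and 205 CPM in rhWnt3aOSMI 1, 2 and 3. Its groups overlapped in all 3 comparisons, with log2 fold changes of 0.20 (SE 0.17), -0.077 (SE 0.17) and 0.12 (SE 0.17) and edgeR adjusted p of 0.628, 0.805 and 0.664. Leaving out the 3 libraries gave 0.15, 0.16 and 0.31, none of them called.

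The other genes of the pathway came from 9 lists that cover chaperones, disulfide enzymes, degradation, stress sensors, targets of ATF4 and CHOP, protein entry, glycan transfer, ER exit and collagen folding, with 164 of 166 genes outside the members tested. In rhWnt3a against Veh 9 of the 164 were called higher and 1 lower, 6.10% in all, with a median log2 fold change of 0.12. In rhWnt3aOSMI against rhWnt3a 2 were higher and 7 lower (5.49%, median -0.16), and in rhWnt3aOSMI against Veh 7 were higher and 13 lower (12.2%, median -0.037). The shares of all tested genes were 8.78%, 4.74% and 14.2%. Without the 3 libraries the counts were 16 higher and 5 lower, 4 and 17, and 14 and 15, with medians of 0.092, -0.050 and 0.089. The shares of all tested genes in that fit were 18.12%, 12.68% and 23.75%. With offsets for gene length and GC content they were 16 higher and 0 lower, 5 and 9, and 16 and 10, so that more were higher than lower in rhWnt3aOSMI against Veh as well. The fit with offsets called 11.03%, 7.45% and 17.38% of all tested genes. In rhWnt3aOSMI against Veh 46.67% of its calls over all genes were higher, beside 34.14% without offsets. Leaving out 1 library moved the totals between 2 and 15, 4 and 13, and 12 and 24.

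Among the sensors, Ern1 encodes IRE1 and had 110.3, 123 and 85.1 CPM in Veh 1, 2 and 3, 235, 134 and 217 CPM in rhWnt3a 1, 2 and 3, and 191, 177 and 229.5 CPM in rhWnt3aOSMI 1, 2 and 3. Its log2 fold change was 0.88 (SE 0.23) in rhWnt3a against Veh (edgeR quasi-likelihood test, adjusted p = 0.0370) and 0.91 (SE 0.23) in rhWnt3aOSMI against Veh (0.0235). The first call was lost in edgeR's test without Veh 1 (0.116), Veh 2 (0.0598), Veh 3 (0.0924), rhWnt3a 1 (0.127), rhWnt3a 3 (0.137), rhWnt3aOSMI 1 (0.0622) or rhWnt3aOSMI 2 (0.0563), and also with only the 6 libraries compared (0.0743). The second was lost without Veh 1 (0.0670), Veh 3 (0.0641), rhWnt3aOSMI 1 (0.0524) or rhWnt3aOSMI 3 (0.0573) (adjusted p in brackets). Eif2ak3, which encodes PERK, was called higher in rhWnt3a against Veh at 0.74 (SE 0.16) (edgeR adjusted p = 0.0162), a call lost without Veh 1 (0.0509), Veh 2 (0.0620), rhWnt3a 1 (0.0629) or rhWnt3a 3 (0.0727). Of Eif2ak3, 10.8% of the transcript is shared with an overlapping gene of 29 counts.

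Atf6 had 156, 159.5 and 133 CPM in Veh 1, 2 and 3, 215, 134 and 209.7 CPM in rhWnt3a 1, 2 and 3, and 323, 344 and 369.9 CPM in rhWnt3aOSMI 1, 2 and 3. All 3 rhWnt3aOSMI libraries were above the 6 others, and rhWnt3aOSMI 3 was the highest, the opposite of its place for the 10 members. Atf6 is 9231 bases long and the members 1108 to 4229, and deviations in rhWnt3aOSMI 3 rose by 0.13 log2 units per doubling of length. The part of gene length in this difference was not tested. Atf6 rose in rhWnt3aOSMI by 1.21 (SE 0.19) against Veh (edgeR quasi-likelihood test, adjusted p = 0.00223), which held in all 17 other settings, and by 0.89 (SE 0.19) against rhWnt3a (0.0274), which edgeR's test lost without rhWnt3a 3 (0.0693), rhWnt3aOSMI 1 (0.0694) or rhWnt3aOSMI 2 (0.0817), and also with only the 6 libraries compared (0.0568). Eif2ak4 encodes GCN2, the kinase of amino acid shortage that acts on the same step as PERK, and had 45.0, 45.6 and 32.5 CPM in Veh 1, 2 and 3, 33.6, 22.3 and 30.3 CPM in rhWnt3a 1, 2 and 3, and 73.5, 74.8 and 79.4 CPM in rhWnt3aOSMI 1, 2 and 3. The rhWnt3aOSMI libraries were again above all others. It rose by 1.40 (SE 0.18) against rhWnt3a and 0.89 (SE 0.18) against Veh (edgeR adjusted p = 0.00395 and 0.00977), and both held in all 17 other settings. Of the 20 sensors and factors tested, 2 were called higher in the first comparison, 2 in the second and 3 in rhWnt3aOSMI against Veh. None was called lower by edgeR, while the fit without the 3 libraries called 4, 3 and 5 higher and 3 lower in each comparison.

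The Hsp110-type chaperone Hyou1 had 131, 139 and 148 CPM in Veh 1, 2 and 3, 235, 199 and 224 CPM in rhWnt3a 1, 2 and 3, and 255, 234 and 277 CPM in rhWnt3aOSMI 1, 2 and 3. All treated libraries were above all Veh libraries, and rhWnt3aOSMI 3 was the highest. The gene is 7230 bases long, and the part of gene length in the place of rhWnt3aOSMI 3 was not tested. Hyou1 rose by 0.65 (SE 0.13) in rhWnt3a and 0.87 (SE 0.13) in rhWnt3aOSMI against Veh (edgeR's quasi-likelihood adjusted p = 0.0103 and 0.00173). The second held in all 17 other settings, and the first was lost without Veh 1 (0.0658) or rhWnt3a 3 (0.0541). Dnajc3, the cochaperone P58IPK, was called higher in rhWnt3a against Veh at 0.53 (SE 0.11) (edgeR adjusted p = 0.0106), lost without Veh 2 (0.0542) or rhWnt3a 3 (0.0645), and also with no count filter (0.0934). Cnpy4 was called lower in rhWnt3aOSMI against Veh at -0.88 (SE 0.21) (0.0181), lost without Veh 1 (0.0629) or Veh 3 (0.0501). Of 19 chaperones tested, members included, 3 were called higher in rhWnt3a against Veh, 0 in rhWnt3aOSMI against rhWnt3a by edgeR (0 by DESeq2, 2 at an unadjusted p under 0.05), and 1 higher and 1 lower in rhWnt3aOSMI against Veh, with list medians of 0.20, -0.23 and 0.051. Over all 14004 tested genes, 2271 passed that unadjusted p together with the fold threshold. The fit without the 3 libraries called 6, 0 and 6 chaperones higher and 0, 0 and 1 lower, with medians of 0.14, 0.012 and 0.057.

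Among the disulfide enzymes, Txndc11, a thioredoxin-domain protein of the ER, had 32.0, 34.3 and 33.9 CPM in Veh 1, 2 and 3, 68.0, 64.6 and 64.6 CPM in rhWnt3a 1, 2 and 3, and 46.0, 45.5 and 50.2 CPM in rhWnt3aOSMI 1, 2 and 3, and the 3 groups did not overlap. It rose by 0.98 (SE 0.11) in rhWnt3a against Veh (edgeR quasi-likelihood test, adjusted p = 0.000460) in all 17 other settings. It shares its locus with Snn on the other strand (5047 counts beside 7409). Qsox1, a sulfhydryl oxidase, had 235, 237 and 267 CPM in Veh 1, 2 and 3, 439.8, 420.1 and 457 CPM in rhWnt3a 1, 2 and 3, and 416, 387 and 403 CPM in rhWnt3aOSMI 1, 2 and 3. It rose by 0.83 (SE 0.12) and 0.71 (SE 0.12) against Veh in the 2 treated groups (edgeR adjusted p = 0.00220 and 0.00431). Both held in all 17 other settings, and the libraries of both treated groups were above those of Veh.

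P4hb encodes protein disulfide isomerase, which is also a subunit of the collagen prolyl hydroxylase, and had 1061, 1036 and 1169 CPM in Veh 1, 2 and 3, 1510.3, 1792 and 1480.3 CPM in rhWnt3a 1, 2 and 3, and 589.8, 578 and 585 CPM in rhWnt3aOSMI 1, 2 and 3. The rhWnt3aOSMI libraries were close together and below all 6 others, and the rhWnt3a libraries were above all others. P4hb fell by 1.45 log2 units (SE 0.14) in rhWnt3aOSMI against rhWnt3a and by 0.90 (SE 0.14) against Veh (edgeR adjusted p = 0.00149 and 0.00246), in all 17 other settings. Its call in rhWnt3a against Veh, 0.55 (SE 0.14) (edgeR adjusted p = 0.0373), was lost without Veh 1 (0.141), Veh 2 (0.160), rhWnt3a 1 (0.0877), rhWnt3a 2 (0.0972), rhWnt3a 3 (0.0917), rhWnt3aOSMI 1 (0.0722) or rhWnt3aOSMI 2 (0.0712), and also with no count filter (0.138), with only the 6 libraries compared (0.0542) or without the 3 libraries that stood apart (log2 fold change 0.48). Txndc5 was lower in rhWnt3aOSMI at -0.72 (SE 0.12) against Veh (edgeR adjusted p = 0.00356) in all 17 other settings and at -0.65 (SE 0.12) against rhWnt3a (0.0177), lost without Veh 2 (0.0507), rhWnt3a 1 (0.0676), rhWnt3a 2 (0.0603), rhWnt3a 3 (0.0741), rhWnt3aOSMI 1 (0.0757) or rhWnt3aOSMI 2 (0.0940). Selenom and Erp29 were called lower in rhWnt3aOSMI against Veh at -0.99 (SE 0.29) and -0.72 (SE 0.21) (edgeR adjusted p = 0.0438 and 0.04502). The Selenom call was lost without Veh 1 (0.0781), Veh 2 (0.123), Veh 3 (0.0991), rhWnt3a 1 (0.0637), rhWnt3a 3 (0.0655), rhWnt3aOSMI 1 (0.0624), rhWnt3aOSMI 2 (0.0550) or rhWnt3aOSMI 3 (0.0504), and also with only the 6 libraries compared (0.0645). The Erp29 call was lost without Veh 1 (0.0801), Veh 2 (0.106), Veh 3 (0.118), rhWnt3a 1 (0.0743), rhWnt3a 3 (0.0715), rhWnt3aOSMI 2 (0.0808) or rhWnt3aOSMI 3 (0.0756), and also with only the 6 libraries compared (0.0790), with the length and GC offsets (0.0572) or without the 3 libraries that stood apart (log2 fold change -0.44). Erp29 shares 38.3% of its transcript with Naa25 and Tmem116, of which 1 has 14175 counts beside 8436, so its counts are uncertain. Txndc5 shares 7.88% with Bmp6, a gene of 91 counts. Of 20 disulfide enzymes 3 were called higher and 0 lower, 0 and 2, and 1 and 6 in the 3 comparisons, and without the 3 libraries 2 and 1, 0 and 3, and 1 and 4. The list medians were -0.038, -0.39 and -0.35, and without those libraries -0.015, -0.15 and -0.20.

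**Figure D4:**
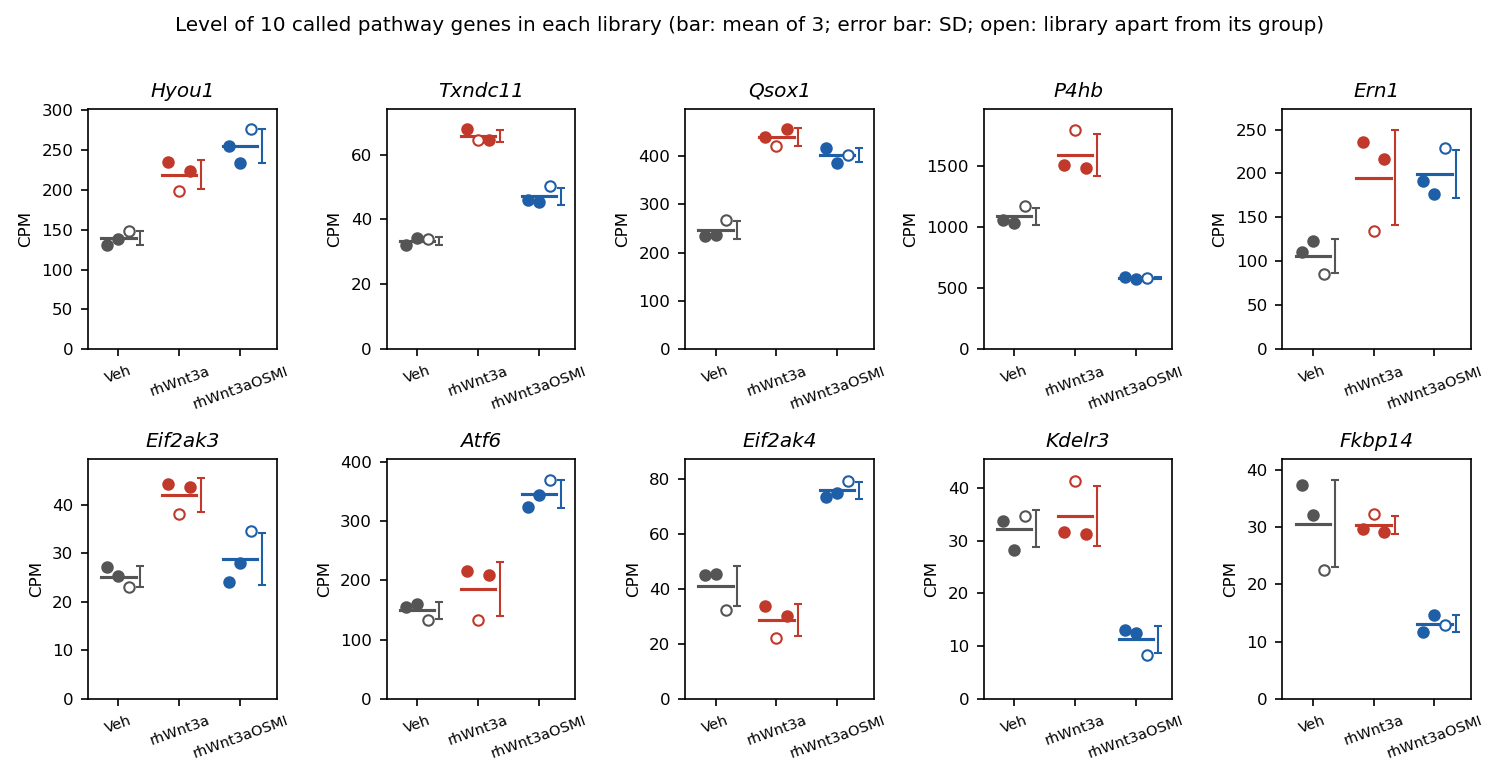
CPM of 10 called pathway genes in each of 9 libraries by group, with the mean of 3 as a bar, the SD as an error bar and open points for the library that stood apart in each group. P4hb and Kdelr3 lie lowest and Atf6 and Eif2ak4 highest in rhWnt3aOSMI, while Hyou1, Txndc11 and Qsox1 lie above Veh in every treated library.

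Of 19 tested ER exit genes 3 were called lower and 0 higher in rhWnt3aOSMI against rhWnt3a, and 2 lower and 0 higher in rhWnt3aOSMI against Veh, with medians of -0.32 and -0.11. Without the 3 libraries 3 and 2 were called lower, and the medians were -0.087 and -0.086. The genes called against rhWnt3a were not all the same, since Sec23a lost its call there. Kdelr3, a receptor that returns resident proteins to the ER, had 33.8, 28.2 and 34.7 CPM in Veh 1, 2 and 3, 31.6, 41.2 and 31.2 CPM in rhWnt3a 1, 2 and 3, and 13.1, 12.5 and 8.39 CPM in rhWnt3aOSMI 1, 2 and 3. Its rhWnt3aOSMI libraries were below the 6 others, and it fell by 1.61 (SE 0.20) against rhWnt3a and 1.51 (SE 0.20) against Veh on the log2 scale (edgeR adjusted p = 0.00292 and 0.000963) in all 17 other settings. Ddx17 overlaps it on the other strand with 99741 counts beside 3953, so reads of the pair cannot be told apart where they overlap. Fkbp14, a prolyl isomerase of collagen folding, had 37.4, 32.0 and 22.5 CPM in Veh 1, 2 and 3, 29.7, 32.2 and 29.2 CPM in rhWnt3a 1, 2 and 3, and 11.7, 14.6 and 13.0 CPM in rhWnt3aOSMI 1, 2 and 3. It fell by 1.21 (SE 0.19) and 1.22 (SE 0.19) log2 units (edgeR adjusted p = 0.00880 and 0.00223), in all 17 other settings. It overlaps Plekha8 on the other strand (3257 counts beside 3727), and the same limit holds. Fkbp10 at -0.80 (SE 0.14) and Fkbp9 at -0.70 (SE 0.12) were lower in rhWnt3aOSMI against Veh (edgeR adjusted p = 0.00451 and 0.00392) in all 17 other settings. Fkbp10 shares 7.59% of its transcript with Nt5c3b on the other strand (4319 counts beside 33891). Fkbp7 at -1.32 (SE 0.31) was lower as well (0.0191 by edgeR), lost without Veh 1 (0.0533) or Veh 2 (0.0635). Of 9 collagen folding genes 4 were called lower and 0 higher in that comparison, with a median of -0.70, and 5 lower without the 3 libraries, with -0.62. Sec23a and Lman1, of ER exit, were called lower against rhWnt3a at -0.53 (SE 0.12) and -0.51 (SE 0.11) (edgeR adjusted p = 0.0408 and 0.0311). The Sec23a call was lost without Veh 1 (0.0614), Veh 2 (0.0913), rhWnt3a 1 (0.0960), rhWnt3a 2 (0.124), rhWnt3a 3 (0.129), rhWnt3aOSMI 1 (0.119), rhWnt3aOSMI 2 (0.116) or rhWnt3aOSMI 3 (0.0758), and also with no count filter (0.0867), with only the 6 libraries compared (0.0822), with the length and GC offsets (log2 fold change -0.49) or without the 3 libraries that stood apart (log2 fold change -0.42). The Lman1 call was lost without Veh 1 (0.0644), Veh 2 (0.0734), rhWnt3a 1 (0.117), rhWnt3a 2 (0.0811), rhWnt3a 3 (0.107), rhWnt3aOSMI 1 (0.112), rhWnt3aOSMI 2 (0.133) or rhWnt3aOSMI 3 (log2 fold change -0.49), and also by DESeq2 (log2 fold change -0.499), with RLE size factors (log2 fold change -0.498), with no count filter (0.112) or with only the 6 libraries compared (0.0709). Sec23a was lower against Veh too at -0.55 (SE 0.12) (edgeR adjusted p = 0.0146), lost without Veh 1 (0.0673), Veh 2 (0.0653), rhWnt3aOSMI 1 (0.0518) or rhWnt3aOSMI 3 (log2 fold change -0.48), and also with the length and GC offsets (log2 fold change -0.48). Fkbp9 was called lower in rhWnt3a against Veh at -0.54 (SE 0.12) (0.0190 by edgeR), lost without Veh 1 (0.0743), Veh 2 (0.105), rhWnt3a 1 (0.108) or rhWnt3a 3 (0.0971), and also with no count filter (0.0743) or with the length and GC offsets (log2 fold change -0.48).

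Of 25 tested targets of ATF4 and CHOP, 2 were called higher in rhWnt3a against Veh, 1 lower in rhWnt3aOSMI against rhWnt3a and 2 higher in rhWnt3aOSMI against Veh, with medians of 0.0088, 0.0070 and -0.030. With the 3 libraries left out 4 were called higher, 2 higher and 3 lower, and 4 higher, with medians of 0.083, 0.14 and 0.13. The cystine transporter Slc7a11 had 71.6, 70.0 and 60.2 CPM in Veh 1, 2 and 3, 107, 65.7 and 96.6 CPM in rhWnt3a 1, 2 and 3, and 156, 154 and 130.1 CPM in rhWnt3aOSMI 1, 2 and 3, and all rhWnt3aOSMI libraries were above all others. It rose by 1.13 (SE 0.18) against Veh (edgeR quasi-likelihood test, adjusted p = 0.00296) in all 17 other settings. Psat1, of serine synthesis, was called higher at 0.80 (SE 0.19) and 0.81 (SE 0.19) against Veh (edgeR adjusted p = 0.0249 and 0.0177), in rhWnt3a and rhWnt3aOSMI. The first was lost without Veh 1 (0.0988), Veh 2 (0.0949), rhWnt3a 1 (0.0648), rhWnt3a 2 (0.0545) or rhWnt3a 3 (0.0767), and the second without Veh 1 (0.0631), Veh 2 (0.0594), rhWnt3aOSMI 1 (0.0561) or rhWnt3aOSMI 2 (0.0552). Vldlr was called higher in rhWnt3a against Veh at 0.60 (SE 0.15) (edgeR adjusted p = 0.0328), lost without Veh 1 (0.126), Veh 2 (0.0941), Veh 3 (0.0687), rhWnt3a 1 (0.114), rhWnt3a 3 (0.136), rhWnt3aOSMI 1 (0.0600) or rhWnt3aOSMI 2 (0.0575), and also with no count filter (0.0610). Ddit4 was called lower in rhWnt3aOSMI against rhWnt3a at -0.69 (SE 0.13) (0.0159 by edgeR), lost without rhWnt3a 2 (0.0532), rhWnt3a 3 (0.0726), rhWnt3aOSMI 1 (0.0594) or rhWnt3aOSMI 2 (0.0752), and also with only the 6 libraries compared (0.0561) or with the length and GC offsets (log2 fold change -0.43).

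Protein entry, glycan transfer and degradation genes gave 0 calls by edgeR's quasi-likelihood test in the 3 comparisons. At an unadjusted p under 0.05 the counts were 8, 7 and 4 for protein entry, 3, 4 and 2 for glycan transfer and 2, 6 and 7 for degradation, and DESeq2 called 1, 1 and 0, 0, 1 and 0, and 0, 0 and 0. Over all 14004 tested genes 2155, 2271 and 3186 passed that p together with the fold threshold. The share of all genes at that p alone is not given. For the 20 protein entry genes the medians were 0.32, -0.38 and 0.081 in the 3 comparisons, with 18 above 0 in rhWnt3a against Veh and 18 below 0 in rhWnt3aOSMI against rhWnt3a. The 18 genes of glycan transfer and the calnexin cycle had medians of 0.25, -0.25 and -0.017, and the 24 degradation genes 0.035, -0.0016 and 0.11, beside 0.037, -0.015 and -0.0077 for all tested genes. Without the 3 libraries the 3 lists gave 3, 1 and 0 higher in the first comparison, 1, 1 and 0 lower in the second and 2, 1 and 0 higher in rhWnt3aOSMI against Veh. Their medians were then -0.14, -0.10 and 0.072 in the second and 0.16, 0.14 and 0.19 in rhWnt3aOSMI against Veh.

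**Figure D5:**
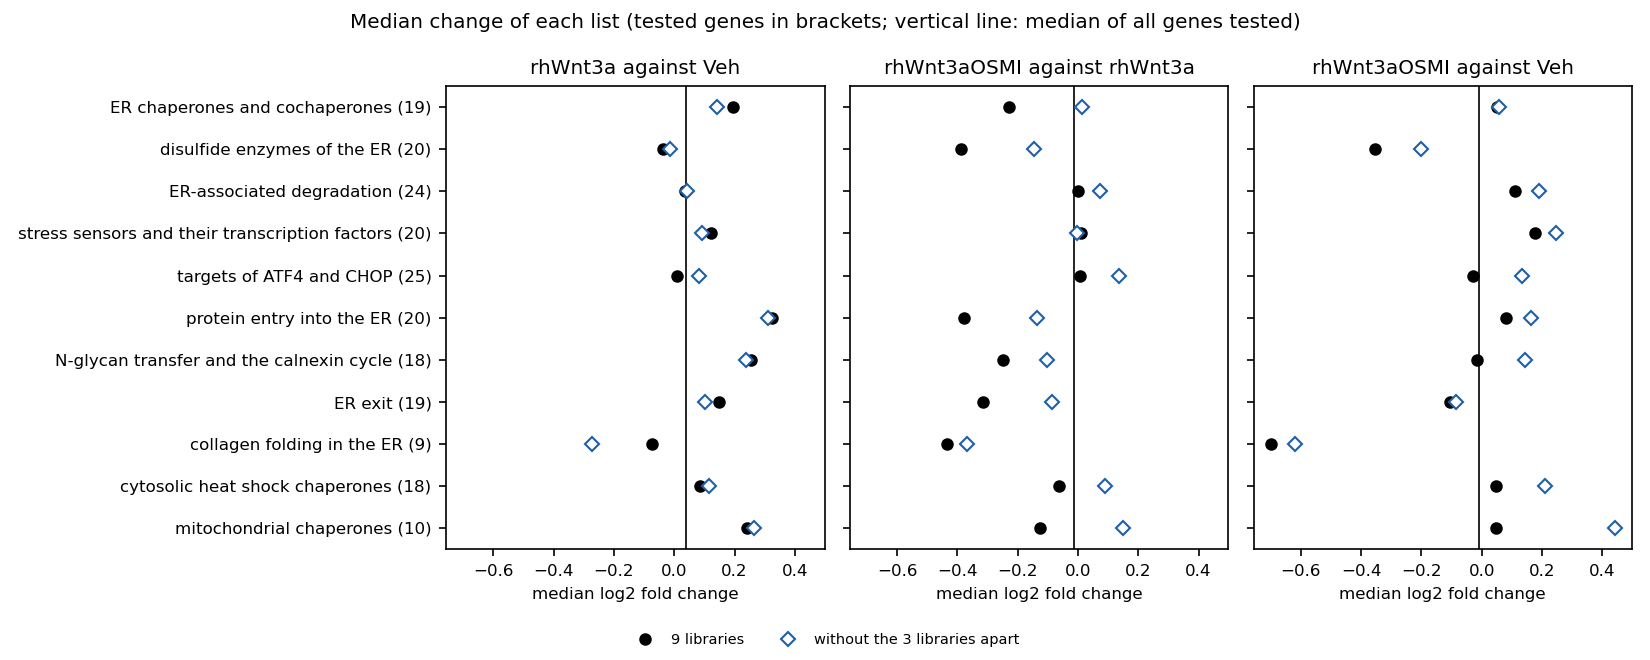
Median log2 fold change of each gene list in the 3 comparisons, from all 9 libraries (black) and without the 3 libraries that stood apart (open diamonds), with a vertical line at the median of all tested genes. Of the 9 pathway lists, collagen folding genes lie lowest in rhWnt3aOSMI against Veh at -0.70 and -0.62, and protein entry genes highest in rhWnt3a against Veh at 0.32 and 0.31.

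Chaperones of other compartments gave the background for the ER. Of 18 tested cytosolic heat shock chaperones 1, Cryab, was called lower in rhWnt3a against Veh at -1.32 (SE 0.23) and in rhWnt3aOSMI against Veh at -1.53 (SE 0.23) (edgeR adjusted p = 0.00564 and 0.00205), both in all 17 other settings, with 22.6% of its transcript shared with Hspb2, a gene of 13 counts. The list medians were 0.084, -0.062 and 0.048, and without the 3 libraries 0.12, 0.090 and 0.21. Of 10 mitochondrial chaperones and proteases 1, Lonp1, was called higher in rhWnt3aOSMI against Veh at 0.60 (SE 0.16) (edgeR adjusted p = 0.0316), lost without Veh 1 (0.109), Veh 2 (0.0897), rhWnt3a 3 (0.0586), rhWnt3aOSMI 1 (0.0762), rhWnt3aOSMI 2 (0.0518) or rhWnt3aOSMI 3 (0.0634), and also with only the 6 libraries compared (0.0524). The medians were 0.24, -0.13 and 0.049. Leaving out the 3 libraries gave 0.26, 0.15 and 0.44, with 4 called higher in rhWnt3aOSMI against Veh. Mitochondrial chaperones were highest in Veh 3 for 10 of 10, highest in rhWnt3a 2 for 8 of 10 and lowest in rhWnt3aOSMI 3 for 9 of 10. For the cytosolic ones these were 15, 16 and 12 of 18, with 5 of 18 highest in rhWnt3aOSMI 3, beside 43.6%, 44.0% and 45.1% of all tested genes.

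The pattern of Hspa5, Hsp90b1 and Calr over the 9 libraries, as the mean of their standardised log2 CPM, was most like that of Pgrmc1 (Pearson r = 0.994), Gatd1 (0.990), Hmgn1 (0.988), Tsn (0.988) and Rpn1 (0.986), of which Rpn1 belongs to the glycan transfer list. Over the 6 libraries left when the 3 that stood apart were removed, r was 0.993, 0.984, 0.986, 0.990 and 0.984. The genes were picked by r over all 9 libraries, which include these 6, so high values follow in part from the choice. Of the 100 genes with the highest r outside the members, 3 were genes of the pathway lists, which hold 164 of the 14004 tested genes. These values are a description over libraries whose groups and whose 3 apart libraries both move the level.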

How the data were processed

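The authors deposited 1 table of read counts per gene and FPKM for 9 libraries, made from mRNA with CASAVA, fastp, HISAT2 2.0.5, featureCounts 1.5.0-p3 and mm10 per the processing notes; the strand setting is not given in the sources used here. The deposited FPKM divides counts by the deposited gene length and a library total. The authors' comparison columns (group means, log2 fold change, p-value) were not used. Of the deposited genes, 54409 were found in GENCODE M21, 53499 with the same start and end.

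Counts were filtered with filterByExpr and scaled by the trimmed mean of M-values, and all 9 libraries were fitted together with the quasi-likelihood test of edgeR 4.0.16 in R 4.3.3; genes were called by the 2 thresholds the report gives. The fits were tested on simulated counts. Alternatives were DESeq2 1.42.0, other size factors, no filter, the 6 libraries compared, a replicate block, length and GC offsets, each library left out, and Veh 3, rhWnt3a 2 and rhWnt3aOSMI 3 left out together. Transcripts that share sequence were found with BLAST 2.17.0. Members, lists and that last alternative were chosen with earlier results of these data known. Named genes are the members, up to 4 called genes a direction from each list and comparison with an average log2 CPM above 1, and the 5 genes most like the chaperones.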

Additional observations from a re-analysis of the deposited data

How the results depend on the processing

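With all 9 libraries 1230, 664 and 1986 of all genes, 1, 0 and 0 members and 10, 9 and 20 pathway genes were called in rhWnt3a against Veh, rhWnt3aOSMI against rhWnt3a and rhWnt3aOSMI against Veh. Leaving out 1 library at a time gave 716 to 1506, 203 to 764 and 1218 to 2328 of all genes, 0 to 3, 0 to 0 and 0 to 1 members, and 2 to 15, 4 to 13 and 12 to 24 pathway genes. Log2 fold changes that crossed 0 were those of Herpud1 (-0.14 to 0.074) and Atf4 (-0.14 to 0.14) in rhWnt3aOSMI against rhWnt3a, and of Ddit3 (-0.0065 to 0.46) and Calr (-0.18 to 0.0084) in rhWnt3aOSMI against Veh. Smaller groups give less power by construction, and why single libraries raised counts was not tested.

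DESeq2 called 2 members and 1515 of all genes in rhWnt3a against Veh and, in rhWnt3aOSMI against rhWnt3a, 1241 of all genes and 17 pathway genes. No count filter gave 2 members and 1552 of all genes in the first of these comparisons, and 1481 of all genes, 1 member and 22 pathway genes in the second. The 6 libraries alone gave 345 of all genes and 5 pathway genes in rhWnt3aOSMI against rhWnt3a. At an unadjusted p, 2155, 2271 and 3186 of all genes, 2, 1 and 1 members, and 19 and 29 pathway genes (first 2 comparisons) passed with the fold threshold. The cause was not tested.

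Offsets for gene length and GC content gave 2, 1 and 1 members, 16 and 14 pathway genes in the first 2 comparisons and 1543, 1042 and 2432 of all genes. They moved Herpud1 (0.12) and Atf4 (0.13) in rhWnt3aOSMI against rhWnt3a and Calr (0.045) in rhWnt3aOSMI against Veh to above 0. The calls over all genes were 617 higher and 926 lower, 475 and 567, and 1135 and 1297, beside 409 and 821, 237 and 427, and 678 and 1308 without offsets. The share of calls that were higher in rhWnt3aOSMI against Veh moved from 34.14% to 46.67%. The cause was not tested.

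The replicate block gave 809, 233 and 1297 of all genes, 0 members in rhWnt3a against Veh (Dnajb9, adjusted p = 0.117), and 3, 4 and 13 pathway genes. The replicate block with the offsets gave 1191, 551 and 1946 of all genes and 1, 0 and 1 members, and Herpud1 0.12, Atf4 0.14 and Calr 0.042 in the comparisons named above. Deviations of libraries that share a number correlated at -0.49 to 0.44. The library that stood apart in each group weighs on these values, so they cannot decide whether the numbers pair the libraries. No call was judged by the block, and the 17 other settings leave it out. In rhWnt3a against Veh, edgeR with the block kept the calls of Hyou1, Txndc11 and Qsox1. Among those it lost were Eif2ak3 (adjusted p = 0.0577), Dnajc3 (0.0583), Psat1 (0.0743), Vldlr (0.0869), Ern1 (0.104) and P4hb (0.128).

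Without Veh 3, rhWnt3a 2 and rhWnt3aOSMI 3, 2557, 1789 and 3351 of all genes, 4, 1 and 5 members, and 21 and 21 pathway genes in the first 2 comparisons were called. Pdia4 turned to -0.016 in rhWnt3a against Veh, Herpud1 to 0.16, Sdf2l1 to 0.15 and Atf4 to 0.29 in rhWnt3aOSMI against rhWnt3a, and Calr to 0.029 in rhWnt3aOSMI against Veh. The libraries kept lie close together, so more calls follow by construction.

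A further fit was chosen after seeing the data, and no result rests on it. It took the main axis of differences within groups (54.7% of that variance, members and pathway lists left out) and added the side of the axis as a term, with Veh 3, rhWnt3a 2 and rhWnt3aOSMI 1 and 2 on 1 side. The sides come from the same counts that were then tested and are unevenly spread over the groups; ratios within sides were also computed and are not reported. It called 2033, 4033 and 4670 of all genes, 5, 3 and 1 members (4 higher and 1 lower, 3 lower, 1 lower) and 18, 57 and 51 pathway genes. Hspa5 turned to -0.14 in rhWnt3aOSMI against rhWnt3a, and Hsp90b1 to -0.062 and Ddit3 to -0.098 in rhWnt3aOSMI against Veh; the cause was not tested.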
